A study of Mus musculus with 288 samples.

Results

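The 100 liver genes described here are those with the clearest wave of 12 h in the livers of mice kept in constant darkness. They were selected on measured values. Each of 19938 genes was represented by 1 probe set, the 9969 genes with a liver mean above the median of all genes (6.93 on the log2 scale) were kept, and these were ranked by the F statistic of a 12 h wave over 24 liver arrays, in a fit that also held waves of 24 h and 8 h. The first 100 of the ranking are the members. Their F ran from 10.95 for Gpsm2 to 48.06 for Nr1d2, with a median of 14.48. The cutoff fell on no gap. The last members were Lasp1, Fam83h, Mga, Klhl21 and Gpsm2 (F from 11.07 to 10.95), and the next genes were Snx3, Ccne1, Flcn, Mn1 and Aqp8 (F from 10.93 to 10.77).

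The series followed 12 tissues of C57/BL6 mice, with no genotype or drug compared. The animals had spent 1 week in 12 h of light and 12 h of dark and were then moved to complete darkness, so every group shares this lighting. Each tissue gave 24 arrays spaced by 2 h, the first at circadian time (CT) 18 and the last at CT64. CT0 is when the lights would have come on, and the mouse is active in the subjective night, from CT12 to CT24. Each array held RNA pooled from 3 mice, so there was 1 pool per time point with no replicate, individual mice cannot be seen, and p-values measure the spread of the pools around a fitted curve. Besides liver these were kidney, lung, heart, aorta, adrenal gland, skeletal muscle, brown and white adipose, and the brain regions hypothalamus, cerebellum and brainstem.

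The liver clock is a feedback loop in which the proteins CLOCK and ARNTL (BMAL1) switch on genes through E-box sequences, the PER and CRY proteins repress them, and the nuclear receptors NR1D1 and NR1D2 (REV-ERB) repress Arntl in turn. Most daily genes of the liver follow 1 rise and 1 fall a day. A profile that is not a pure sine, such as one with a flat top and a narrow dip, needs waves of shorter period beside the daily one to be described, and so does a profile with 2 rises a day. A 12 h term alone cannot tell the one from the other, which is why the shape of each curve is given below. Genes of protein folding in the endoplasmic reticulum (ER) and of heat shock are known for 12 h rhythms in mouse liver.

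In the liver the 100 genes had 12 h waves with a fitted peak-to-trough fold (here called the 12 h fold) from 1.07 for Polr2f to 2.20 for Usp2, with a median of 1.24. The median over all 9969 genes above the liver median was 1.06. As the fold chose the members in part, this is a description. The same fit with the moderated F test of limma called 65 genes, 0.326% of all genes, at a p under 0.05 after Benjamini-Hochberg adjustment (below, "called"), and 64 of them were members. Nothing is read from that count, since the ranking used the same values. In the first 12 arrays (CT18 to CT40) and the last 12 (CT42 to CT64), fitted apart, the median 12 h fold was 1.24 and 1.25. As the ranking favours genes whose 12 h wave agrees between days, what follows is also a description. The 12 h peak times of both days differed by a median of 0.34 h and by at most 1.47 h (Crot), beside a median of 1.98 h over all genes above the liver median.

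**Figure D1:**
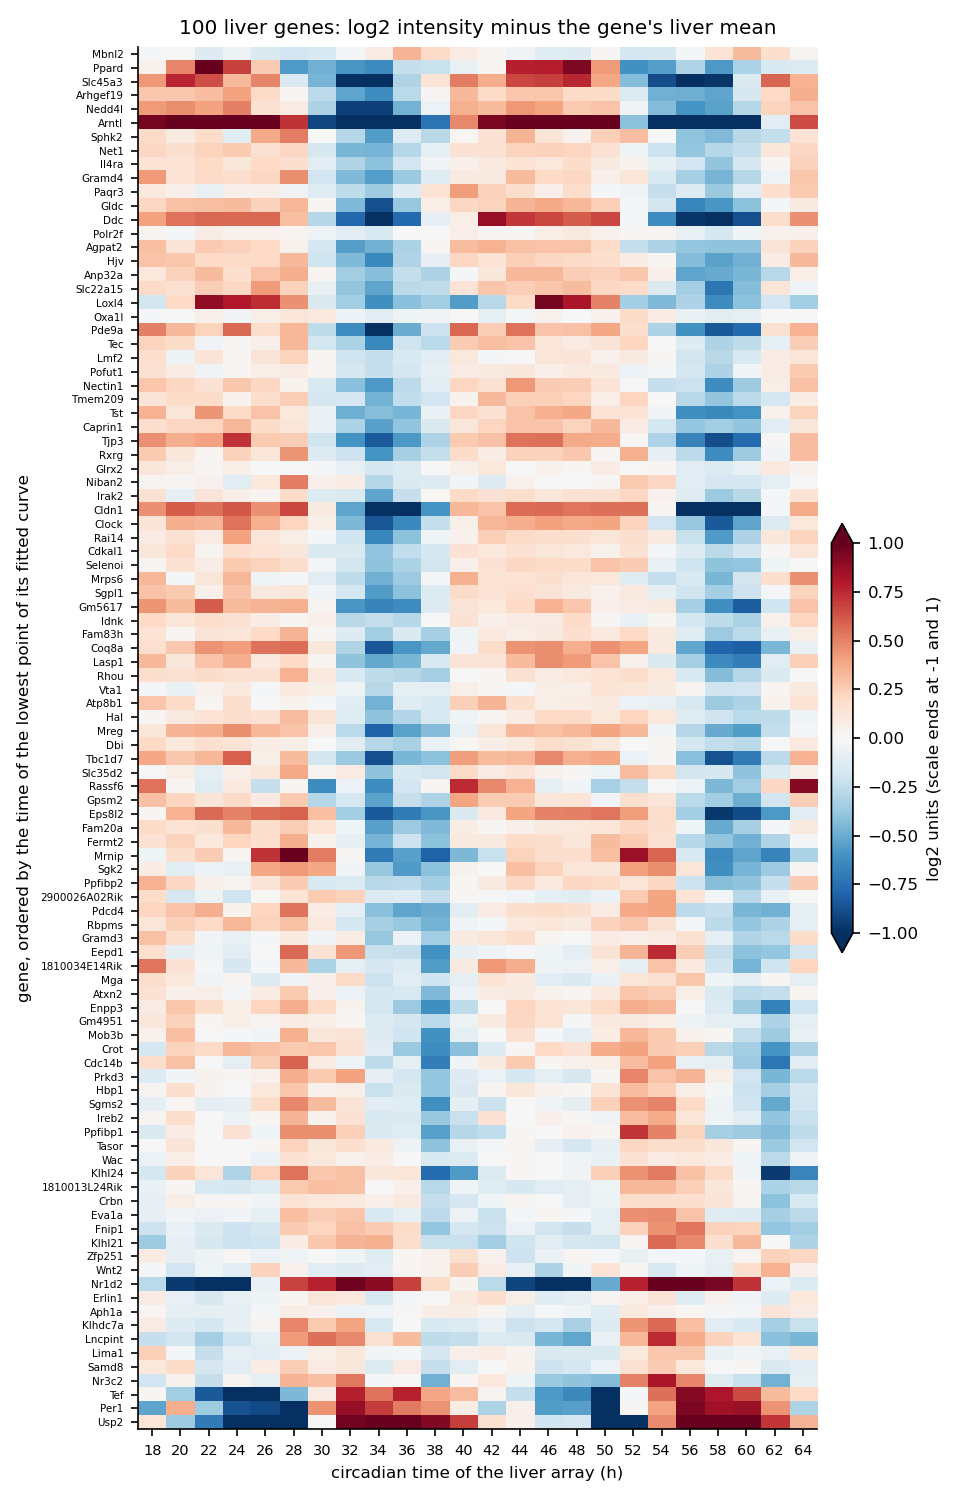
Liver log2 intensity of the 100 genes on each of the 24 arrays, minus the gene's liver mean; each row is a gene, ordered by when its fitted curve is lowest, each column an array in order of CT, red is above and blue below the mean, and the colour scale ends at 1 log2 unit either way. In most rows a wide red band is broken once a day by a narrow blue band near CT34 and CT58; Nr1d2, Tef, Per1 and Usp2 at the bottom are lowest around CT22 to CT28 and CT46 to CT52.

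Most of the 100 genes joined a daily wave with a 12 h wave that flattened its top, and the fitted curve of 73 had 2 maxima a day (47.1% of the genes above the median), that of 18 had 1 (11.2%) and that of 9 had 3 (41.7%). Of the 100 genes, 95 also carried a called 24 h wave in liver, beside 46.5% of the genes above the median, and only 12 had a 12 h wave larger than their 24 h wave (15.2% of the genes above the median). For 62 genes the trough of the 12 h wave lay within 2 h of the 24 h peak, which flattens the top of the curve and deepens its low point (below, the plateau form); among the 4634 genes above the median with a called 24 h wave this share was 50%. The 12 h peak lay within 2 h of the 24 h peak for 15 genes (21.1% of those 4634), and neither held for 23. The fitted curve stayed above its midpoint for more than 12 h a day in 76 genes (64.2% of the 4634), for a median of 15.5 h against 13.1 h. The largest group, 54 genes (38.5% of the 4634), had its 24 h peak between CT20 and CT24, the end of the subjective night. Of these 54 genes, 50 had the 12 h trough there, a count with no share over other genes beside it. The fitted curve was lowest between CT8 and CT12, the end of the subjective day, in 59 genes (50.8% of the 4634).

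The 12 h peaks were bunched. In 81 genes they fell between CT3 and CT7 and again 12 h later, in 6 between CT0 and CT3 and in 13 between CT7 and CT12. Over all genes above the median, 54.7% had their fitted 12 h peak between CT3 and CT7. One liver array bears on this. The array of CT34 stood apart, with a median correlation of 0.9794 to the other liver arrays, against a median of 0.9955. The mean of all genes above the median was lowest on it, at 8.934 against a median of 9.153 over the liver arrays, and the mean of the 100 genes was lowest on it too, at 9.445 against 9.875. Of the members, 31 had their lowest value there (41.9% of all genes above the median did), and 18 had it at CT58, 1 day later. Without that array the share of all genes with a 12 h peak between CT3 and CT7 fell to 38.8%, while 77 of the members had theirs there, the members' median fold was 1.23, no member's peak moved by more than 0.338 h, and the count with the trough at the 24 h peak was again 62.

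**Figure D2:**
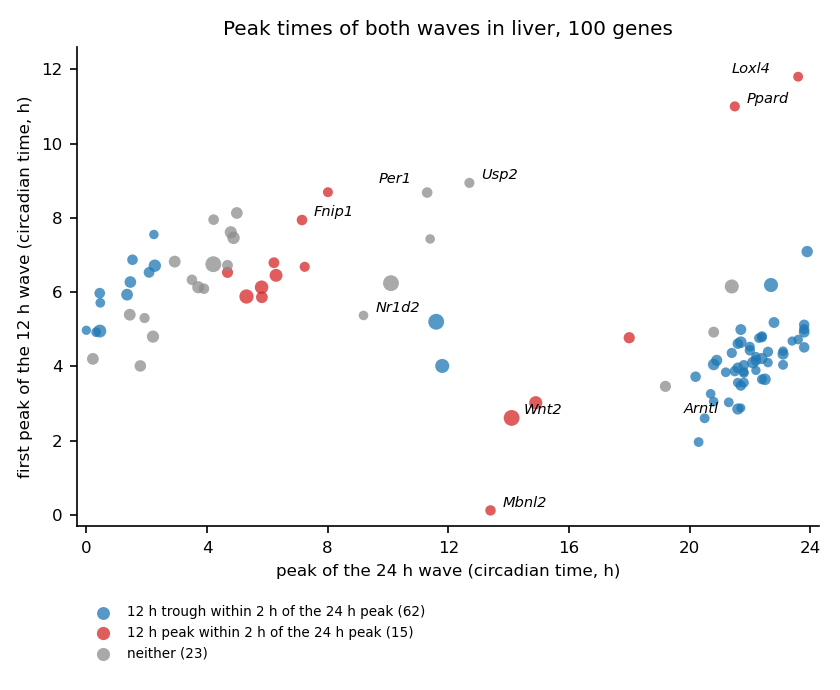
For each of the 100 genes, the liver peak of its 24 h wave (horizontal axis, CT in h) and the first peak of its 12 h wave (vertical axis, CT in h); colour marks which part of the 12 h wave lies at the 24 h peak, and larger points have a larger 12 h wave relative to the 24 h wave (size stops growing at a ratio of 2). The blue points crowd at 24 h peaks from CT20 to CT24 with 12 h peaks near CT4, and Ppard and Loxl4 stand alone at the upper right.

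The arrays of the liver held the cells their label names. The 10 hepatocyte markers averaged 13.57 to 13.65 log2 units over the 24 arrays, with a 12 h fold of 1.01, and the 12 h folds of the marker lists of other cell types on the liver arrays ran from 1.01 to 1.15 (lung epithelium). In bulk tissue fewer cells of a type and less RNA per cell cannot be told apart.

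The clock supplied 6 members of its 22 measured genes, while members were 1% of the genes above the median: the activators Clock and Arntl, the repressors Nr1d2 and Per1, Tef, a transcription factor of the PAR bZIP family that binds D-box sequences, and Usp2, a ubiquitin protease that acts on clock proteins. Tef and Per1 are outside the naming rule and are named because the count is small. Nr1d2 (chr14:18204056-18239106 of mouse build GRCm38.p6) ranked first. Its liver log2 intensity was lowest at 8.48 on the CT46 array and highest at 11.09 on the CT54 array. Averaged over both days it stood at 8.53 at time 0, had reached 10.68 by time 4, held between 10.91, 10.98 and 10.88 at times 6, 8 and 10 and then sank slowly to 8.54 at time 22. Nr1d2 thus rose in a few hours and fell over the rest of the day. Its 12 h fold was 1.69 (95% interval 1.52 to 1.88) beside a 24 h fold of 4.85.

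Arntl, which NR1D2 represses, had the largest 24 h fold of the 100 genes, 12.13, and the smallest 12 h wave relative to the 24 h wave, a ratio of 0.22. Its liver values ran from 5.90 at CT32 through a median of 8.58 to 9.47 at CT22. The values averaged over both days stayed between 9.36 and 9.43 from time 20 to time 2 and dropped to 5.99 at time 8, so the top was flat for 6 h and the fall was steep. Between days Arntl differed most at time 4, by 1.13 log2 units (8.74 at CT28 and 7.61 at CT52). The 12 h fold of Arntl was 1.74 (1.40 to 2.16). Clock, its partner, was lower on the CT34 array (9.46) than on any other and highest on the CT24 array (10.86), with a 12 h fold of 1.27 (1.19 to 1.37) and a peak at CT4.10 (SE 0.270).

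Per1, Tef and Usp2 were the late members of the clock group. Per1 lay at 7.03 on its lowest array (CT50), had a median of 8.51 and reached 9.39 on its highest (CT56). It went from its lowest to its highest value in 6 h on the second day. At time 4 it stood at 7.27 on the first day (CT28) and 8.46 on the second (CT52), a difference of 1.19 log2 units. Its values averaged over both days held a second, smaller rise, 8.66 at time 20 after 8.02 at time 18. Its 12 h fold was 1.78 (1.42 to 2.24) with the first peak at CT8.68 (SE 0.365). Tef, with a 12 h fold of 1.44 (1.24 to 1.67), peaked at CT7.43. Usp2 (chr9:44067021-44095627) had the largest 12 h fold of the 100 genes, 2.20 (1.64 to 2.96), on top of a 24 h fold of 5.90. Its values ran from 7.40 at CT28 through a median of 9.86 to 10.95 at CT36. Values of Usp2 at the same time on both days differed by up to 1.35 log2 units, while its 12 h fold was 2.10 on the first day and 2.30 on the second.

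**Figure D3:**
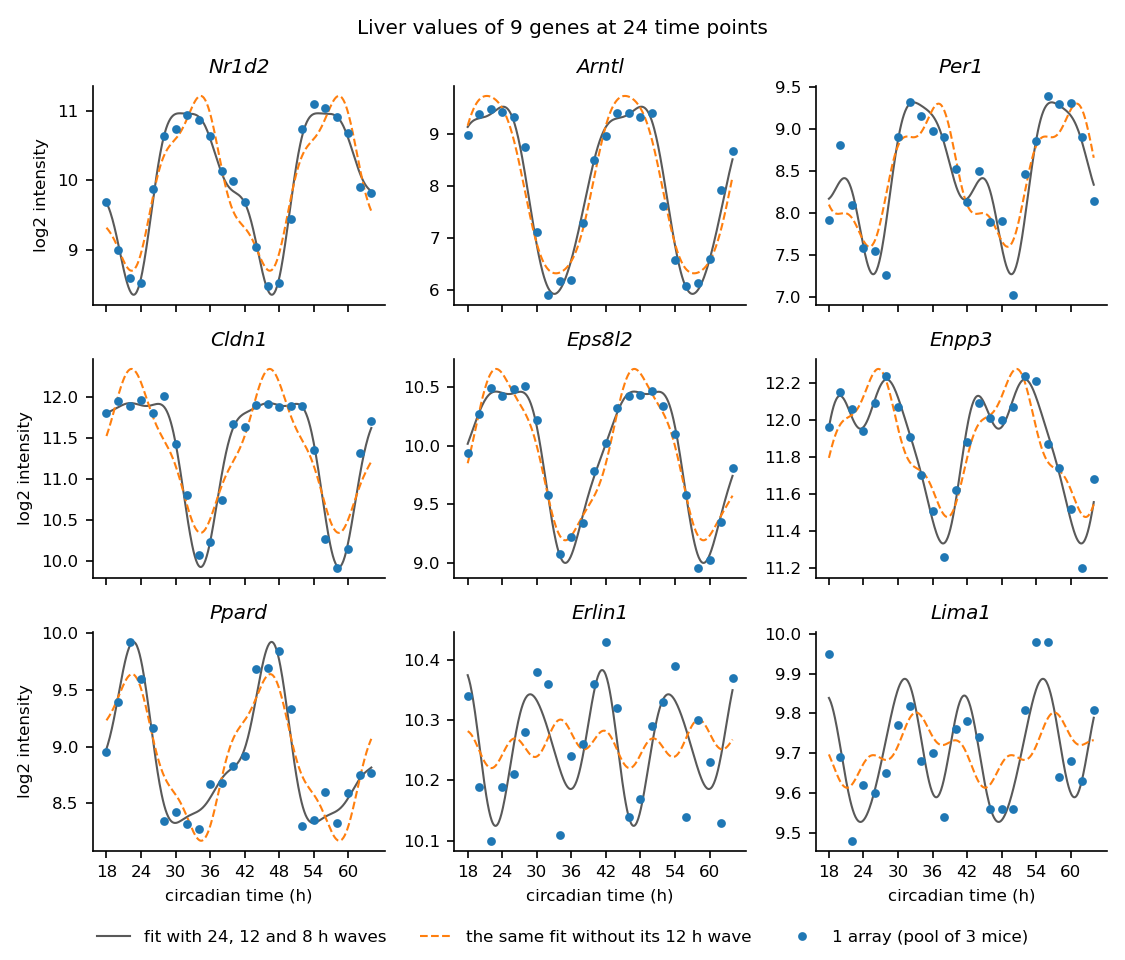
Liver log2 intensity of 9 of the genes against circadian time (h); each point is 1 array of 3 pooled mice, the solid line is the fit with waves of 24, 12 and 8 h, and the dashed line is the same fit with its 12 h wave taken out; vertical scales differ between panels. Cldn1 and Eps8l2 show the flat top with a narrow dip, Ppard the narrow peak over a broad floor, and Erlin1 and Lima1 2 rises a day of small size.

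The promoter stretch around the E-box, the CACGTG sequence that CLOCK and ARNTL bind, is shown for 3 members, because their 12 h peaks are the latest (Per1 CT8.68, Fnip1 CT7.94, Tef CT7.43) of the 8 members with this motif near a start site. Each stretch has 120 bases on the plus strand of GRCm38.p6, with the E-box in capitals: chr11:69098726-69098845 for Per1, chr15:81802489-81802608 for Tef and chr11:54437990-54438109 for Fnip1. The E-boxes begin at -166, -127 and -75 relative to the start site of the RefSeq promoter table. That start site is the first base of the gene for Tef, but lies 3841 bases inside the annotated gene for Per1 and 72 bases inside it for Fnip1, so the Per1 stretch is within the gene and the Fnip1 E-box spans the first base of the gene.
Per1: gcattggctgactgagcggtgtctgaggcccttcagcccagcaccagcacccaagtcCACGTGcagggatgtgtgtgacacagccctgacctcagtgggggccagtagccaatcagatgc
Tef: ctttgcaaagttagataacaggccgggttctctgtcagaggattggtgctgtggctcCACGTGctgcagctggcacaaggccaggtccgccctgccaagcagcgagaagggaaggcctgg
Fnip1: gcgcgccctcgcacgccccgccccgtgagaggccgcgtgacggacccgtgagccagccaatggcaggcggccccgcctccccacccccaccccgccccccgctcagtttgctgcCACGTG

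A RefSeq promoter window, 250 bases before to 50 after the start site, was found for 85 of the 100 genes and for 15563 genes in all, taking the first listed start site of a gene. All members lie above the liver median, so each share is set against the 8023 genes above that median that had a window; both strands were searched. CACGTG lay in the windows of 9.41% of the members and 10.7% of those genes (8.40% of all genes). The shorter ACGTG, which CACGTG contains, lay in 21.2% against 26.5%. The cyclic AMP response element TGACGTCA was in 6 members, 7.06% against 3.27%: Oxa1l, Paqr3, Sphk2, Lmf2, Cdc14b and Idnk. CCAAT was in 43.5% against 38.5%, the ETS site CCGGAAG in 14.1% against 18.8%, TGACGTGG, a site of the ER stress factor XBP1, in 1.18% against 0.885%, and GAANNTTC, a part of the heat shock element, in 3.53% against 5.72%. The D-box TTATGTAA and the ER stress element were in no member's window, and in 0.548% and 0.174% of the genes above the median. TAGGTCA, a site of REV-ERB and ROR receptors, was in 2.35% against 2.18%, and CACGTT in 3.53% against 5.28%. These are descriptions of the letters in the windows.

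Several members named by the rule belong to cell contacts or the cytoskeleton, a grouping made after the values were seen. Cldn1, claudin 1 of the tight junction (chr16:26356645-26371839), had values from 9.92 at CT58 through a median of 11.69 to 12.01 at CT28. Averaged over both days it stayed between 11.69 and 11.95 from time 16 to time 4, a span of 12 h, and dipped at time 10. The dip was at 10.08 on the CT34 array and at 9.92 on the CT58 array, both at time 10. This too is a description, as the ranking favours such agreement. Its 12 h fold was 1.78 (1.58 to 2.01) and its 24 h fold 3.35. Tjp3, a scaffold protein of the same junction, ran from 8.02 at CT58 to 9.63 at CT24, with a 12 h fold of 1.29 (1.17 to 1.42) and a 24 h fold of 2.46.

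Eps8l2, an actin-regulating relative of EPS8, ran from 8.96 at CT58 through 10.06 to 10.51 at CT28, with a 12 h fold of 1.30 (1.22 to 1.39). Its values at the same time differed between days by a median of 0.06 log2 units. That is a description, since the ranking favours genes that agree between days. Caprin1, an RNA-binding protein of stress granules, had the same form at a lower size (12 h fold 1.15, 24 h fold 1.64). Arhgef19, an activator of the GTPase RhoA, had a 12 h fold of 1.25 (1.16 to 1.35) and peaked early, at CT2.60 (SE 0.299). Fermt2, kindlin 2 of integrin contacts, had a 12 h fold of 1.23 (1.14 to 1.33), and Mreg, melanoregulin, one of 1.19 (1.11 to 1.28) beside a 24 h fold of 1.96.

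Members with roles in metabolism, also grouped after their values were seen, are given next. Coq8a, an atypical kinase needed for coenzyme Q synthesis, ran from 10.85 at CT34 through 11.85 to 12.26 at CT28, with a 12 h fold of 1.32 (1.24 to 1.41). Gldc, the glycine decarboxylase of the glycine cleavage system, ran from 10.35 at CT34 to 11.61 at CT46, with a 12 h fold of 1.28 (1.18 to 1.39). Averaged over both days, both were lowest at time 10, at 10.88 (Coq8a) and 10.50 (Gldc). They were still low at time 12, at 11.01 and 10.83, and stood at 12.06 and 11.55 by time 20. Ddc, which removes the carboxyl group of aromatic amino acids, and Hal, the first enzyme of histidine breakdown, are members outside the naming rule, chosen after their values were seen. Ddc had a 12 h fold of 1.55 (1.34 to 1.79) and a 24 h fold of 3.48, and Hal, at a mean of 12.70, had a 12 h fold of 1.13 (1.08 to 1.18).

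Enpp3, an enzyme of the cell surface that splits nucleotides, ranked second and had 2 maxima a day. Its values ran from 11.20 at CT62 through 11.95 to 12.24 at CT28. Averaged over both days it peaked at 12.24 at time 4 and again at 12.12 at time 20, with 11.97 between them at time 0 and the low point of 11.23 at time 14. Its values at the same time differed between days by at most 0.13. The 12 h fold was 1.29 (1.22 to 1.37), with the first peak at CT6.87 (SE 0.199).

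Lipid enzymes made up several of the other members. Agpat2, which makes phosphatidic acid, was the single member from 32 measured genes of fatty acid and glycerolipid synthesis. It ran from 11.73 at CT32 to 12.63 at CT42, with a 12 h fold of 1.19 (1.12 to 1.27). Selenoi, the ethanolaminephosphotransferase of phosphatidylethanolamine synthesis, had a 12 h fold of 1.17 (1.11 to 1.23). Crot, the peroxisomal carnitine octanoyltransferase, ran from 12.10 at CT38 to 13.12 at CT52, with a later dip (12.11 at time 14) and a 12 h fold of 1.19 (1.11 to 1.27). Atp8b1, a flippase that moves phospholipids across the bile canaliculus membrane, had a 12 h fold of 1.20 (1.12 to 1.29).

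A further 4 members act on sphingolipids; no list of such genes was counted, so their number is not set against a background. Sphk2 makes sphingosine 1-phosphate and Sgpl1 breaks it down, while Sgms2 makes sphingomyelin and its relative Samd8 makes ceramide phosphoethanolamine. The group was put together after the values were seen. Sphk2 ran from 8.22 at CT34 to 9.29 at CT28, with a 12 h fold of 1.30 (1.19 to 1.43) and a peak at CT4.33. Sgpl1 had a 12 h fold of 1.21 (1.13 to 1.30) and a peak at CT4.61, Sgms2 one of 1.26 (1.15 to 1.38) at CT6.09, and Samd8 one of 1.17 (1.09 to 1.26) at CT6.13.

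The signalling members included kinases, a phosphodiesterase and receptors. Sgk2, a serum and glucocorticoid regulated kinase, ran from 9.22 at CT58 through 9.86 to 10.30 at CT54, with a 12 h fold of 1.45 (1.31 to 1.60) and the first peak at CT5.39. It rose from 9.86 at time 0 to 10.26 at time 4 and fell to 9.34 by time 10, then stood level from time 16 on. Pde9a, which breaks down cyclic GMP, ran from 8.50 at CT34 to 10.07 at CT40 (12 h fold 1.50, 1.33 to 1.68). Hjv, hemojuvelin, the co-receptor through which hepatocytes set hepcidin and so iron uptake, ran from 10.40 at CT34 to 11.37 at CT28 (12 h fold 1.32, 1.23 to 1.41). Il4ra, the interleukin 4 receptor chain, had a 12 h fold of 1.17 (1.10 to 1.24) and Irak2, a kinase of interleukin 1 signalling, one of 1.24 (1.15 to 1.33).

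Among nuclear receptors, Ppard, the fatty acid receptor PPAR-delta, had the opposite form. It stood at 8.27 on its lowest array (CT34), had a median of 8.76 and rose to 9.92 at CT22. Its fitted curve lay above the midpoint for only 7.2 h a day. Its 12 h wave, 1.49-fold (1.33 to 1.68), peaked at CT11.0 and CT23.0 with the 24 h wave (CT21.5), which sharpens the peak. Slc45a3, a solute carrier, had the plateau form, from 7.54 at CT56 to 9.62 at CT20, with a 12 h fold of 1.57 (1.36 to 1.80) and a 12 h peak at CT1.96. Mrnip, a protein of DNA double-strand break repair, rose to 9.57 at time 4 from 7.86 at time 14. Its fitted curve spent 10.2 h a day above its midpoint, with a 12 h fold of 1.47 (1.32 to 1.64). Paqr3, a Golgi membrane protein, had a 12 h fold of 1.21 (1.13 to 1.30).

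Fnip1, a partner of folliculin in nutrient signalling, was high in the subjective day: 10.37 at time 8, against 9.57 at time 14 and 9.74 at time 0. Its 12 h fold was 1.25 (1.15 to 1.37), and the 12 h peak at CT7.94 lay close to the 24 h peak at CT7.15. Flcn, which encodes folliculin itself, was just outside the 100, in place 103, with a 12 h fold of 1.26 and a peak at CT7.02. Klhl24, an adaptor of cullin 3 ubiquitin ligases, ran from 10.05 at CT62 to 11.55 at CT28 with a sharp dip at time 14 (10.15, between 11.05 at time 12 and 10.40 at time 16) and a 12 h fold of 1.38 (1.24 to 1.53). Eepd1 had a 12 h fold of 1.44 (1.27 to 1.63) and Klhdc7a, at the lowest mean level of the 100 (7.05), one of 1.33 (1.20 to 1.48).

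Further members, named after their values were seen, included 2 more nuclear receptors. Nr3c2, the mineralocorticoid receptor, ran from 7.78 at CT38 through 8.24 to 9.08 at CT54, with a 12 h fold of 1.54 (1.32 to 1.79) and a 12 h peak at CT6.45 that fell together with its 24 h peak at CT6.29. Rxrg, a retinoid X receptor, ran from 7.44 at CT58 to 8.51 at CT28 (12 h fold 1.32, 1.19 to 1.47). Nedd4l, a ubiquitin ligase of ion channels, had a 12 h fold of 1.30 (1.17 to 1.43) and the plateau form, with a 24 h peak at CT20.8. Ireb2, an iron regulatory protein that binds messenger RNA, had a 12 h fold of 1.24 (1.14 to 1.34) with a peak at CT6.82, later than that of Hjv. Tbc1d7, a subunit of the TSC complex that restrains mTORC1, had a 12 h fold of 1.32 (1.18 to 1.49), Tst, the sulfur transferase rhodanese, one of 1.25 (1.15 to 1.36), and Nectin1, an adhesion protein, one of 1.20 (1.11 to 1.30). Dbi, which binds acyl-CoA, had the highest mean level of the 100 (12.99) and a 12 h fold of 1.10 (1.06 to 1.14). Mbnl2, a splicing regulator, was the member with the 12 h peak at CT0.119 and a 24 h peak at CT13.4, so it was high when most members were low.

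The 12 genes whose 12 h wave was larger than their 24 h wave had 12 h folds from 1.09 (Aph1a) to 1.54 (Nr3c2). Erlin1, of the ER lipid raft complex that takes part in ER-associated degradation, had almost no 24 h wave (fold 1.02) and a 12 h fold of 1.15 (1.08 to 1.23). Its values ran only from 10.10 at CT22 through 10.27 to 10.43 at CT42. Averaged over both days Erlin1 peaked at 10.38 at time 6 and again at 10.38 at time 18. Lima1, an actin-bundling protein, did so at 9.90 at time 8 and 9.86 at time 18 (12 h fold 1.22, 1.13 to 1.31). Wnt2, a Wnt ligand made by endothelial cells of the liver, had a 12 h fold of 1.24 (1.14 to 1.35) and a 12 h peak at CT2.61, with 7.65 at time 2 and 7.66 at time 14. In values averaged over both days, these 3 rose 2 times a day by similar amounts. These averages ran from 10.12 to 10.38 (Erlin1), 9.52 to 9.90 (Lima1) and 7.28 to 7.66 (Wnt2). Differences between days at the same time reached 0.22 (Erlin1), 0.21 (Lima1) and 0.31 (Wnt2) log2 units. The medians of these differences were 0.06, 0.07 and 0.09. Mga (1.21, 1.11 to 1.31), Aph1a, a gamma-secretase subunit (1.09, 1.05 to 1.14), and Gramd3 (1.25, 1.14 to 1.36) completed the 6 genes with the highest ratio of 12 h to 24 h amplitude, clone names left out.

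Function lists other than the clock were nearly empty of members. Of 22 lists, 18 had none, heat shock (0 of 38 measured genes, the highest in place 1336) and ER chaperones (0 of 42, the highest in place 1024) among them. Mrps6 was the single member of 76 mitochondrial ribosomal proteins, with a 12 h fold of 1.22 (1.13 to 1.32). Oxa1l, which inserts proteins into the inner mitochondrial membrane, was not on that list and had a 12 h fold of 1.08 (1.03 to 1.12). The lists for cytosolic ribosomal proteins (55 measured), respiratory chain (62) and ER to Golgi transport (77) had no member. A total of 5 members have clone names only, 5 lie on chromosome 18, and 3 have a further probe set: that of Mob3b gave a 12 h fold of 1.12, that of Aph1a 1.09 and that of Loxl4 1.29, with peaks at CT5.63, CT3.96 and CT11.1 against CT6.71, CT4.01 and CT11.8.

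The other 11 tissues did not choose the members, so tests are given there. The marker levels of other tissues and cell types have to be set beside them first, and the source of these markers was not tested. On the adrenal gland arrays the hepatocyte markers ran from 6.86 at CT58 to 12.44 at CT50, and their mean had a 12 h fold of 10.85 with the peak at CT4.86, where most members peak in liver. On the brown adipose arrays the skeletal muscle markers ran from 6.77 to 11.75 (12 h fold 5.94). A list of another tissue's or cell type's markers had a 12 h fold above 1.5 in 7 of the 11 tissues; besides the 2 named these were aorta (heart muscle 2.43, hepatocyte 1.95), heart (hepatocyte 1.80, high on the CT26 array), lung (hepatocyte 1.77), skeletal muscle (lymphocyte 1.79, adipocyte 1.71) and white adipose (lung epithelium 2.26, cholangiocyte 1.81). No list had this in kidney, brainstem, cerebellum and hypothalamus. In all 12 tissues the markers of the labelled tissue were higher than in any other tissue.

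After adjustment few members were called outside the liver. The moderated F test of limma called 12 members in brown adipose (4.83% of all genes), 10 in skeletal muscle (6.99%) and 1 in lung (0.0602%). It called no member in adrenal gland (0% of all genes), aorta (0%), cerebellum (0%), hypothalamus (0%) and white adipose (0%), nor in brainstem, heart and kidney (0.00502% each, 1 gene). Over all these tissues, 80 of the 100 genes were called in none, 17 in 1, and Nr1d2, Fermt2 and Usp2 in 2 each. These counts over tissues have no share over other genes beside them.

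At an unadjusted p under 0.05, kidney and lung had 24 members each. Over all genes the share was 6.31% in kidney and 7.58% in lung, and over the genes above the liver median 8.68% and 8.79%. In each of the 2 tissues, 18 of the 24 peaked within 2 h of their liver peak, a description with no share over other genes beside it. The kidney genes included Nr1d2, Per1, Usp2, Sphk2, Eps8l2, Cldn1, Tjp3, Coq8a, Ppard and Fnip1, and the hepatocyte markers had a 12 h fold of 1.20 on the kidney arrays, from 7.46 to 8.32. The lung genes included Nr1d2, Clock, Arntl, Per1, Tef, Usp2, Enpp3, Sphk2, Tjp3 and Hal. With the hepatocyte marker mean as a covariate in lung, 19 members passed (5.44% of all genes), Nr1d2, Per1, Usp2 and Sphk2 among them. Enpp3 and Hal did not (limma unadjusted p = 0.124 and 0.142). Both were highest on the CT26 lung array, where the hepatocyte markers were highest too. The same counts were 16 in aorta (5.89%), 14 in adrenal gland (6.79%), 12 in heart (5.62%), 15 in white adipose (10.8%), 5 in cerebellum (3.65%), 5 in hypothalamus (3.47%) and 4 in brainstem (2.90%). In brown adipose 34 passed (21.1%) and in skeletal muscle 36 (32.7%). For muscle, cerebellum, hypothalamus and brainstem the members' share was thus near that of all genes.

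**Figure D4:**
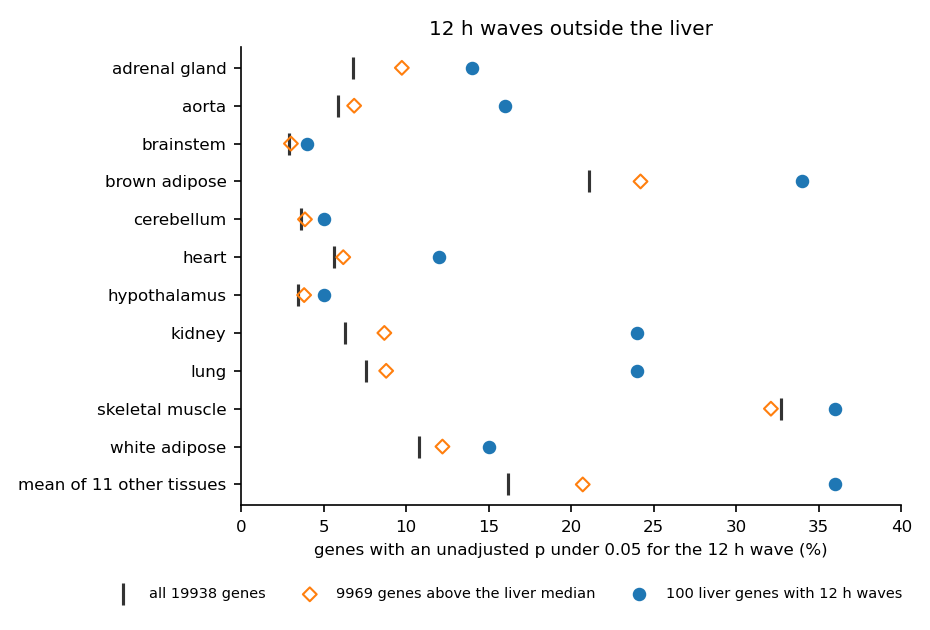
Share of genes (%) with an unadjusted p under 0.05 for the 12 h wave in each tissue other than liver and in the mean profile of the 11; blue dots are the 100 liver genes, orange diamonds the 9969 genes above the liver median, black ticks all 19938 genes. The dots stand farthest to the right of the diamonds in kidney, lung and the mean profile. They lie close to them in brainstem, cerebellum, hypothalamus, white adipose and skeletal muscle.

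In the adrenal gland the largest 12 h fold of a member was that of Hal, which was not called (limma adjusted p = 0.082). Hal, at 12.70 in liver, was at 5.54 on the CT22 adrenal array, a median of 6.46, and 10.48 on the CT50 array, a 12 h fold of 5.74 (2.83 to 11.65). Enpp3 ran from 6.37 at CT36 through 7.0 to 9.74 at CT50 there, with a 12 h fold of 2.37 (1.50 to 3.73). Both were highest on the array with the most hepatocyte marker signal. With the hepatocyte marker mean as a covariate the folds were 1.27 (1 to 1.88) for Hal and 1.09 (1 to 1.69) for Enpp3, and 2 members in place of 14 had an unadjusted p under 0.05 (2.73% of all genes).

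The mean profile of the 11 tissues, each gene centred within its tissue and averaged per time point, called 5 members, with 0.607% of all genes called: Enpp3 (12 h fold 1.14, 95% interval 1.08 to 1.19, limma adjusted p = 0.0274), Usp2 (1.13, 1.07 to 1.19, adjusted p = 0.0497), Sphk2 and Crot (1.07 each, 1.04 to 1.10, adjusted p = 0.0446 each) and Fnip1 (1.06, 1.04 to 1.09, adjusted p = 0.0446). A further 31 brought those with an unadjusted p under 0.05 to 36 (16.2% of all genes, 20.7% of the genes above the liver median). Enpp3 peaked at CT4.50 there, 2.37 h before its liver peak. Of the 100 genes, 69 peaked within 2 h of their liver peak in this profile, and of the 36, 27 did. These 2 counts are descriptions with no share over other genes beside them. The calls changed when single tissues were left out. Without the adrenal gland 2 members were called, Nr1d2 (1.19, 1.11 to 1.28, limma adjusted p = 0.0431) and Hjv, the 12 h fold of Enpp3 was 1.06 (1.01 to 1.11) and that of Crot 1.04 (1.01 to 1.07), and 27 members had an unadjusted p under 0.05 (12.5% of all genes). Usp2, Sphk2 and Fnip1 kept folds of 1.13, 1.07 and 1.06 without it but were not called (limma adjusted p = 0.0519, 0.107 and 0.0931). The calls over all genes moved too, from 121 genes to 61 without the adrenal gland. Without brown adipose no member and 8 genes in all were called, and without white adipose 17 members and 657 genes.

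In the mean of kidney, brainstem, cerebellum and hypothalamus, where no list of foreign markers had a 12 h fold above 1.5, 13 members had an unadjusted p under 0.05 (6.36% of all genes, 7.73% of the genes above the liver median) and 9 of these peaked within 2 h of their liver peak. No member was called by limma there, and the count of 9 has no share over other genes beside it. Per1 had a 12 h fold of 1.24 (1.13 to 1.35) in that mean, Usp2 1.10 (1.05 to 1.15), Sphk2 1.06 (1.02 to 1.10) and Fnip1 1.04 (1.01 to 1.07). For Enpp3 the fold was 1, with an upper bound of 1.03, and for Crot 1.01, with an upper bound of 1.04.

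**Figure D5:**
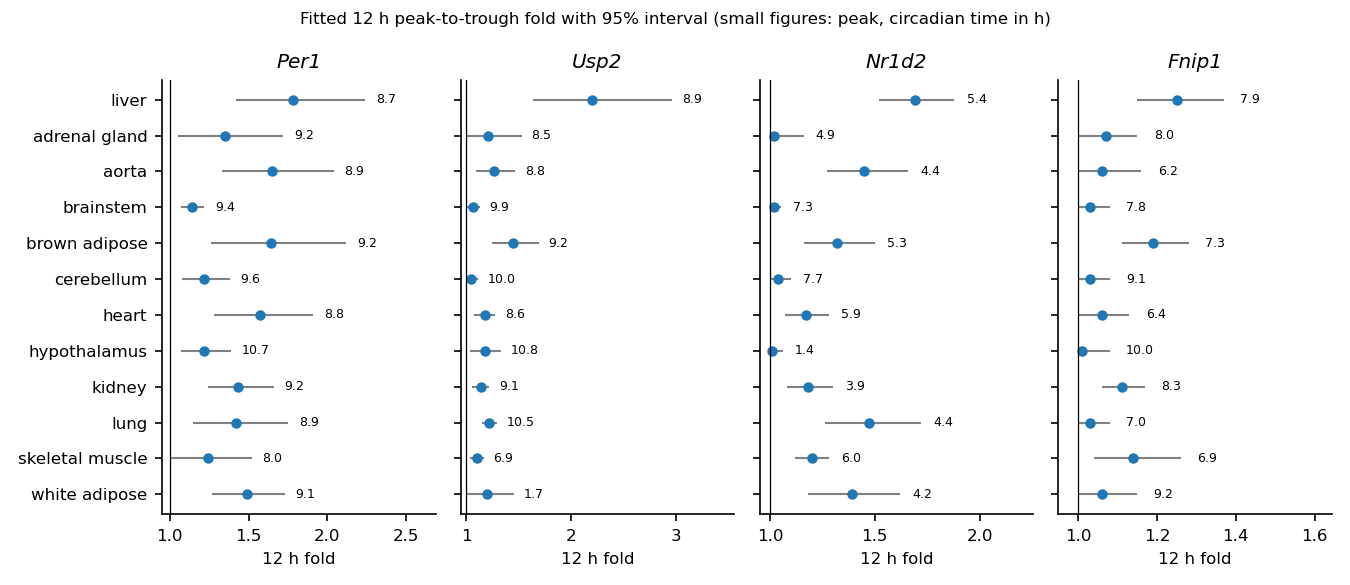
Fitted 12 h peak-to-trough fold (horizontal axis, no units, 1 is no wave) of Per1, Usp2, Nr1d2 and Fnip1 in the 12 tissues; dots are the fold over 24 arrays, bars the 95% interval, and the small figures the first 12 h peak in CT (h). Per1 peaks between CT7.96 and CT10.7 in every tissue, while the fold of Nr1d2 is at most 1.04 in adrenal gland, brainstem, cerebellum and hypothalamus.

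Per1 was the member whose 12 h wave returned in the most tissues. It had an unadjusted p under 0.05 in 9 of 11 tissues, although it was called in none and its adjusted p in the mean profile was 0.0663 (limma). Its 12 h fold ran from 1.14 (1.07 to 1.22) in brainstem through a median of 1.42 to 1.65 (1.33 to 2.04) in aorta, against 1.78 in liver. The first 12 h peak of Per1 lay within 1 h of the liver peak in 10 of the 11 tissues, with hypothalamus the exception at CT10.7 (SE 0.624). In kidney its values ran from 7.18 at CT24 through 7.99 to 8.80 at CT34, in lung from 7.66 at CT48 to 9.99 at CT34 and in heart from 7.51 at CT48 to 9.52 at CT32. The intervals of the Per1 fold in heart, aorta and liver overlap.

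Usp2 in lung was the only call in a tissue outside brown adipose and muscle. Its lung values ran from 7.75 at CT48 through 8.15 to 8.96 at CT36, with a 12 h fold of 1.22 (1.15 to 1.29, limma adjusted p = 0.00737) and a peak at CT10.5, against CT8.94 in liver. With the hepatocyte marker mean as a covariate the fold was 1.23 (1.15 to 1.32, limma adjusted p = 0.0473). In kidney Usp2 had a 12 h fold of 1.14 (1.06 to 1.22) and in heart 1.18 (1.08 to 1.28), neither called by limma (adjusted p = 0.435 and 0.786).

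Nr1d2 was called in brown adipose (1.32, 1.16 to 1.50, limma adjusted p = 0.0276) and skeletal muscle (1.20, 1.12 to 1.28, limma adjusted p = 0.0116), with peaks at CT5.32 and CT6.02 near the liver peak of CT5.37. In lung and aorta its folds were larger, 1.47 (1.26 to 1.72) and 1.45 (1.27 to 1.66), but were not called by limma (adjusted p = 0.128 and 0.159). In adrenal gland, brainstem, cerebellum and hypothalamus the fold was 1.02, 1.02, 1.04 and 1.01. Over the 6 clock members, the 12 h peak lay within 2 h of the liver peak in a median of 9 of the 11 tissues, against 5 for the other 94 members and 4 for all genes above the liver median. These are descriptions, since the tissues of a time point may come from the same mice.

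In brown adipose the largest wave was that of Hjv, which skeletal muscle also expresses: 5.73 at CT62, a median of 7.97 and 9.98 at CT46, a 12 h fold of 4.86 (2.81 to 8.42, limma adjusted p = 0.00188). It was highest on the CT46 array, where the skeletal muscle markers were highest too, and its peak at CT8.13 lay 4.17 h after the liver peak. With the skeletal muscle marker mean as a covariate the fold of Hjv was 1.37 (1.06 to 1.77). In that fit limma called 0 genes in all (963 without the covariate), members included. An unadjusted p under 0.05 was found for 25 members (12.3% of all genes, 13.1% of the genes above the liver median). The folds of other members were near their earlier size: Nr1d2 1.33 (1.17 to 1.51, limma adjusted p = 0.115), Atp8b1 1.28 (1.27 before), Klhdc7a 1.35 (1.35 before), Fermt2 1.28 (1.20 before) and Klhl24 1.18 (1.20 before). That of Usp2 was 1.30 (1.45 before). The other members called there were Atp8b1, Eepd1, Fermt2, Fnip1, Klhdc7a, Klhl24, Mreg, Oxa1l, Tec and Usp2, with 12 h folds from 1.15 (Oxa1l) to 1.45 (Usp2). Of the 34 members with an unadjusted p under 0.05 in brown adipose, 16 peaked within 2 h of liver, again with no share over other genes.

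In skeletal muscle the members called were Nr1d2, Arntl, Agpat2, Fermt2, Sgpl1, Wnt2, Prkd3, Cdc14b, Klhl21 and 1810013L24Rik, with 12 h folds from 1.08 (Fermt2) to 1.52 (Agpat2). With the mean of the lymphocyte markers added to the fit 7 members were called (1466 genes in all, against 1393 without it), and Agpat2 (1.29, 1.07 to 1.55), Arntl (1.20, 1.01 to 1.42) and Sgpl1 (1.13, 1.01 to 1.27) were not. When the arrays that stand apart were left out, 1 member and 193 genes in all were called. The lymphocyte markers there were between 6.83 and 7.60 on the arrays of CT22, CT24, CT42, CT44 and CT46, against a median of 5.66.

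The daily 24 h waves of these genes were tested in the other tissues too. In kidney 61 of the 100 had a called 24 h wave (25.8% of all genes, 38.7% of the genes above the liver median), and 39 of these peaked within 3 h of the liver. For the other tissues both shares follow each count in the same order. The counts were 44 in brown adipose (19.7% and 27.4%), 41 in lung (21.3% and 28.9%) and 28 in heart (8.77% and 13.2%). They were 27 in aorta (5.08% and 7.85%), 26 in adrenal gland (6.18% and 8.96%) and 21 in skeletal muscle (7.19% and 9.32%). In cerebellum 20 were called (5.27% and 7.05%), in brainstem 18 (4.16% and 5.52%) and in white adipose 16 (4.52% and 6.74%). In hypothalamus 10 were called (1.55% and 2.30%), and in the mean profile 68 (32.7% and 47.2%). In the adrenal gland 19 of the 26 peaked within 3 h of the liver, beside the hepatocyte markers given above. The counts of peaks within 3 h of the liver have no share over other genes beside them. Arntl had the largest 24 h fold of the 100 genes in 9 of the 11 tissues, from 1.52 in brainstem to 9.54 in kidney, and Per1 in cerebellum (1.66) and hypothalamus (1.53).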

How the data were processed

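Total RNA of 12 mouse tissues was measured on 288 arrays. The deposited values are intensities on a linear scale, from 6.9 to 45307.8, made by the authors with Affymetrix Expression Console and GCRMA per the submitters' processing notes; version, order and whether tissues were normalized apart are not given in the sources used here. Array medians lay between 95.2 and 106.6, so differences in total RNA are not kept. The intensities were taken to log2 with no pseudocount.

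Of 35556 probe sets, 21789 carried 1 gene symbol (1621 several, 12146 none) in a platform annotation that can be old, and each of 19938 genes took its probe set with the highest mean over all arrays. Positions and promoters are from RefSeq (GRCm38.p6). Waves of 24, 12 and 8 h were fitted per tissue with limma 3.58.1 (R 4.3.3, moderated F, trend), with Benjamini-Hochberg adjustment over all genes; folds have 95% intervals, peaks have delta-method SEs, and 17 residual degrees of freedom remain. Ranks used the ordinary F. The fits were tested on simulated data.

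The members, the lists and the naming rule were chosen with earlier results of these data known. Genes named are the 20 with the highest F, up to 4 per function list, up to 10 called in the mean profile, 10 called in most tissues, 6 each with the highest and lowest ratio of 12 h to 24 h amplitude, and places 96 to 105. Members named outside it were chosen after their values were seen. Arrays stand apart at 5 scaled median absolute deviations and 1 log2 unit (marker lists) or 0.003 (correlation): 22 arrays in 8 tissues. The marker covariates, the profile of 4 tissues and that without brown adipose and skeletal muscle, TAGGTCA and CACGTT were added after seeing the data. Alternatives are in the closing section.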

Additional observations from a re-analysis of the deposited data

How the results depend on the processing

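Between 72 and 99 of the 100 genes stayed among the first 100 under 8 other settings (quantile normalization of the liver arrays kept the fewest), and without the liver array of CT34 78 did. For the 41 genes named by the rule, all 82 liver folds under other settings stayed within their 95% intervals. Counts of members called by limma at an adjusted p under 0.05 outside the liver were less stable. The calls over all genes moved too and are given after each count. In skeletal muscle, 10 of 1393 as reported, they were 21 of 2345 with a straight line over CT, 4 of 499 with the ordinary F, 4 of 460 with quantile normalization, 2 of 63 among genes above the tissue median and 1 of 193 without the arrays that stand apart. In adrenal gland the count was 1 of 62 among genes above the tissue median, in white adipose 2 of 269 without the arrays that stand apart, and in brown adipose 0 of 0 with the skeletal muscle covariate. In the mean profile, 5 of 121 as reported, it was 3 of 113 without the 8 h wave, 0 of 54 with the ordinary F, 0 of 4 with the median over tissues, 3 of 28 with each gene scaled by its SD, 2 of 120 with quantile normalization and 10 of 187 among genes above the median. Leaving out a tissue gave 2 of 61 (adrenal gland), 3 of 126 (aorta), 0 of 8 (brown adipose), 8 of 215 (heart), 2 of 111 (kidney), 3 of 93 (skeletal muscle) and 17 of 657 (white adipose); 0 of 4 were called without brown adipose and skeletal muscle together and 0 of 1 in the 4 tissues without a rise of foreign markers. The cause was not tested. No paired analysis was possible because the labels give no replicate numbers: each tissue has 1 array per time point, and whether tissues of a time point share mice is not stated. With 1 pool per time point the number of arrays limits the precision.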
